A study of Mus musculus with 6 samples.

Results

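Interferon signalling and response genes were followed in the prostates of TRAMP mice given OSU-CG5 or vehicle. The 46 genes were a named list that runs from the interferon receptors and their kinases, through the transcription factors, to the antiviral effectors those factors induce. A probe set carrying only that gene's symbol was found for 43 of the 46, among 18193 genes measured in this way, and Isg15, Ifi44 and Tgtp1 were not analysed here. Each gene was read from the brightest of its probe sets. All 6 mice were intact males of the genotype (C57BL/6 TRAMP x FvB) F1, so both groups carried the TRAMP transgene, in which a probasin promoter drives SV40 T antigen in prostate epithelium. The 3 OSU-CG5 mice received 100 mg/kg daily by mouth for 4 weeks, starting at 6 weeks of age and ending at 10 weeks. The 3 vehicle mice received vehicle over the same weeks. Dorsal and lateral lobes were microdissected together, about 2 to 4 h after the last dose, and the RNA of each mouse went on 1 Affymetrix array. OSU-CG5 is known here by its code name. In this model tumours start from a viral oncogene in prostate epithelium, and whole lobes also hold stromal, vascular and immune cells.

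Interferons are secreted proteins through which cells warn each other of viruses and other intracellular threats. Type I interferons act through Ifnar1 and Ifnar2 and interferon gamma through Ifngr1 and Ifngr2. Kinases pass the signal to STAT proteins, among them Jak1 at both receptor types and Tyk2 at the type I receptor. Complexes that hold Stat2 and Irf9 bind the interferon-stimulated response element, and the response to interferon gamma also runs through the gamma-activated site. The genes switched on in this way destroy foreign RNA, block translation, trap virus particles and attack the vacuoles of intracellular microbes. In tumours the same genes can be driven by the tumour cells or by infiltrating immune cells.

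Both response elements were looked for in RefSeq promoter windows of the build GRCm38.p6, which cover 250 bases before to 50 bases after a gene's start. Windows were found for 39 of the 46 genes. The letters GAAANNGAAA were searched on both strands as the core of the interferon-stimulated response element. A window of 16 of these 39 genes held them, or 41%, against 524 of 14452 measured genes with a window, or 3.63%. The 39 also take in Isg15, Ifi44 and Tgtp1, which were not measured, and Isg15 and Tgtp1 are among the 16. The letters TTCNNNGAA, searched as the gamma-activated site, were present in 12 of the 39, or 30.8%, against 8.57% of the 14452. A match is a run of letters and does not show that a factor was bound. The windows printed here are those of the 5 genes with the smallest unadjusted p among those with the first motif, and of 2 with the second motif only. They let the elements be read beside genes that differed in opposite directions. Each runs from 250 bases before the start to 30 after it, 5′ to 3′ on the gene's strand, and capitals mark the motif named. The windows lie at chr17:78882543-78882822 on the minus strand for Eif2ak2, chr3:142620413-142620692 on the plus strand for Gbp2, chr11:58199306-58199585 on the plus strand for Igtp, chr7:102565453-102565732 on the minus strand for Trim21 and chr19:34583279-34583558 on the plus strand for Ifit3. Capitals mark GAAANNGAAA or its reverse complement in these 5. The window of Ifit2 lies at chr19:34550444-34550723 and that of Ifi35 at chr11:101448162-101448441, both on the plus strand, and capitals mark TTCNNNGAA there.
Eif2ak2: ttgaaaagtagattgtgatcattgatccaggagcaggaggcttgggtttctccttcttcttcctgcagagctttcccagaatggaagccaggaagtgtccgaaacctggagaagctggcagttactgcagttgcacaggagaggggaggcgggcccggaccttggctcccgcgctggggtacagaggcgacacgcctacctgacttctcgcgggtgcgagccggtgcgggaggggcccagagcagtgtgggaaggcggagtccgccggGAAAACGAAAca
Gbp2: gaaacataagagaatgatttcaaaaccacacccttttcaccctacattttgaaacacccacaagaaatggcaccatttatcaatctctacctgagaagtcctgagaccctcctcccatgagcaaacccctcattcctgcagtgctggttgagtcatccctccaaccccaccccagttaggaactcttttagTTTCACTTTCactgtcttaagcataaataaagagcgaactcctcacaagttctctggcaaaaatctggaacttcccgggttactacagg
Igtp: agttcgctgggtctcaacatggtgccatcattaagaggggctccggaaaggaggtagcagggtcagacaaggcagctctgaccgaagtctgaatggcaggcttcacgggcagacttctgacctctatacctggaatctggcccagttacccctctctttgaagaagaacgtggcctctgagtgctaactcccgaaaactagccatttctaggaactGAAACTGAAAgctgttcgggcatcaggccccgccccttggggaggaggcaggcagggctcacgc
Trim21: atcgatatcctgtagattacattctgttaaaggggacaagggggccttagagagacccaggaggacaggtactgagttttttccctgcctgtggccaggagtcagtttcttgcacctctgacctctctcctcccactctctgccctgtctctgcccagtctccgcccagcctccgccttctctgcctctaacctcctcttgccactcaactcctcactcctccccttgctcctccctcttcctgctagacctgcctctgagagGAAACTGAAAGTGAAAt
Ifit3: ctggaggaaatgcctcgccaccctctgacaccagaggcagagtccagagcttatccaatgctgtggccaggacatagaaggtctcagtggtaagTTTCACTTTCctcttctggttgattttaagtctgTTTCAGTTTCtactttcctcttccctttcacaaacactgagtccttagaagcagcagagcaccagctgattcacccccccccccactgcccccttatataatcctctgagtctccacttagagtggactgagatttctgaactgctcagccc
Ifit2: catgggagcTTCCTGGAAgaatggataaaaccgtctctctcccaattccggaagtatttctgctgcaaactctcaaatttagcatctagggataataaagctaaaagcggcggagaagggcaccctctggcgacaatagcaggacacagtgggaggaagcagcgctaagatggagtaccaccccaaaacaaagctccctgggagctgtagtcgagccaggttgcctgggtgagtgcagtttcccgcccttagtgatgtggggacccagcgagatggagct
Ifi35: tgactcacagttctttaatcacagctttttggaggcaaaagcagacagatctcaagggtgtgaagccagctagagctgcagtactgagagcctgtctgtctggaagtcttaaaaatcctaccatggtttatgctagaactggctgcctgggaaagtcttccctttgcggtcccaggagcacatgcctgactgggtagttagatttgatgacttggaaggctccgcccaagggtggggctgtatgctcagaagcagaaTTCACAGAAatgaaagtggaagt
The marked run began 19 bases after the start in Eif2ak2, at -59 in Gbp2 and at -34 in Igtp, counted from the gene's start. Trim21 held 2 overlapping runs, beginning 14 and 20 bases after the start. Ifit3 held 2 separate runs, beginning at -156 and -122. The runs in Ifit2 and Ifi35 began at -241 and 8 bases after the start. Eif2ak2 and Igtp also held TTCNNNGAA, beginning at -178 and -45, which is left in lower case.

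Values are log2 expression values from RMA, a method that corrects background, equalises the arrays' distributions and summarises probes, and differences are OSU-CG5 minus vehicle. Array medians lay between 5.299 and 5.377. Vehicle replicate 2 stood apart: its Pearson correlations with the other arrays across probe sets were 0.966 to 0.981, against 0.987 to 0.995 for the other pairs. It also held the highest level of seminal vesicle transcripts, from a gland beside the prostate. Their mean over 5 measured genes was 4.82, 4.40 and 3.72 on the OSU-CG5 arrays, against 4.10, 8.07 and 5.26 on the vehicle arrays. The main counts over the interferon genes, and their differences that moved by over 1.5 times without that array, are therefore also given without it. The prostate secretory genes Pbsn and Tgm4 read 13.76 to 14.01 on the OSU-CG5 arrays and 13.28 to 13.91 on the vehicle arrays. The 3′ minus 5′ difference of Gapdh, a sign of RNA quality, averaged 2.89 ± 0.16 in OSU-CG5 mice and 2.39 ± 0.32 in vehicle mice (SD, n = 3 each, two-sided exact permutation test, p = 0.2, where the smallest possible p is 0.1). That of Actb averaged 3.03 ± 0.07 in OSU-CG5 mice and 2.99 ± 0.13 in vehicle mice (SD, same exact permutation test, p = 0.6). Precision is limited by the 3 arrays per group.

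The interferon genes did not move as a block. Their median difference was 0.00, with 22 genes above 0 and 21 below, while the median of all 18193 genes was -0.09. In whole lobes, fewer cells of a type and less RNA per cell cannot be told apart. Above 0 lay 51.2% of the interferon genes and 34.3% of all genes. The interferon genes were also brighter, with a mean level of 7.51 against 6.38 for all genes. With a minimum mean of log2 6 the 2 medians lay closer together. They were 0.02 over the 39 interferon genes left and -0.02 over the 9627 genes left in all. With limma and Benjamini-Hochberg adjustment over 45037 probe sets, 0 of the 43 reached an adjusted p under 0.05, as did 0 probe sets in all, or 0%. Their limma adjusted p-values ran from 0.134 to 0.987, and the smallest over all probe sets was 0.112. At an unadjusted p under 0.05, 3 interferon genes were higher in OSU-CG5 mice and 3 lower. Over all genes 5.4% were higher and 8.43% lower at that threshold, 13.8% together, against 14% of the interferon genes. The share of interferon genes was thus near that background. The groups did not overlap for 7 genes: 3 (Eif2ak2, Ifit2 and Parp14) had every OSU-CG5 array above every vehicle array, and 4 (Dtx3l, Gbp2, Igtp and Irgm1) had every one below. Over all genes 8.1% did not overlap with OSU-CG5 higher and 14.2% with OSU-CG5 lower. After quantile normalization was repeated on the deposited values, 1 gene was higher and 5 lower by the unadjusted p, in place of 3 and 3, while 15% of all genes passed. Without vehicle replicate 2, 4 were higher and 1 lower, or 11.6% against 12.7% of all genes, and the median difference was -0.03 against -0.05 for all genes.

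**Figure D1:**
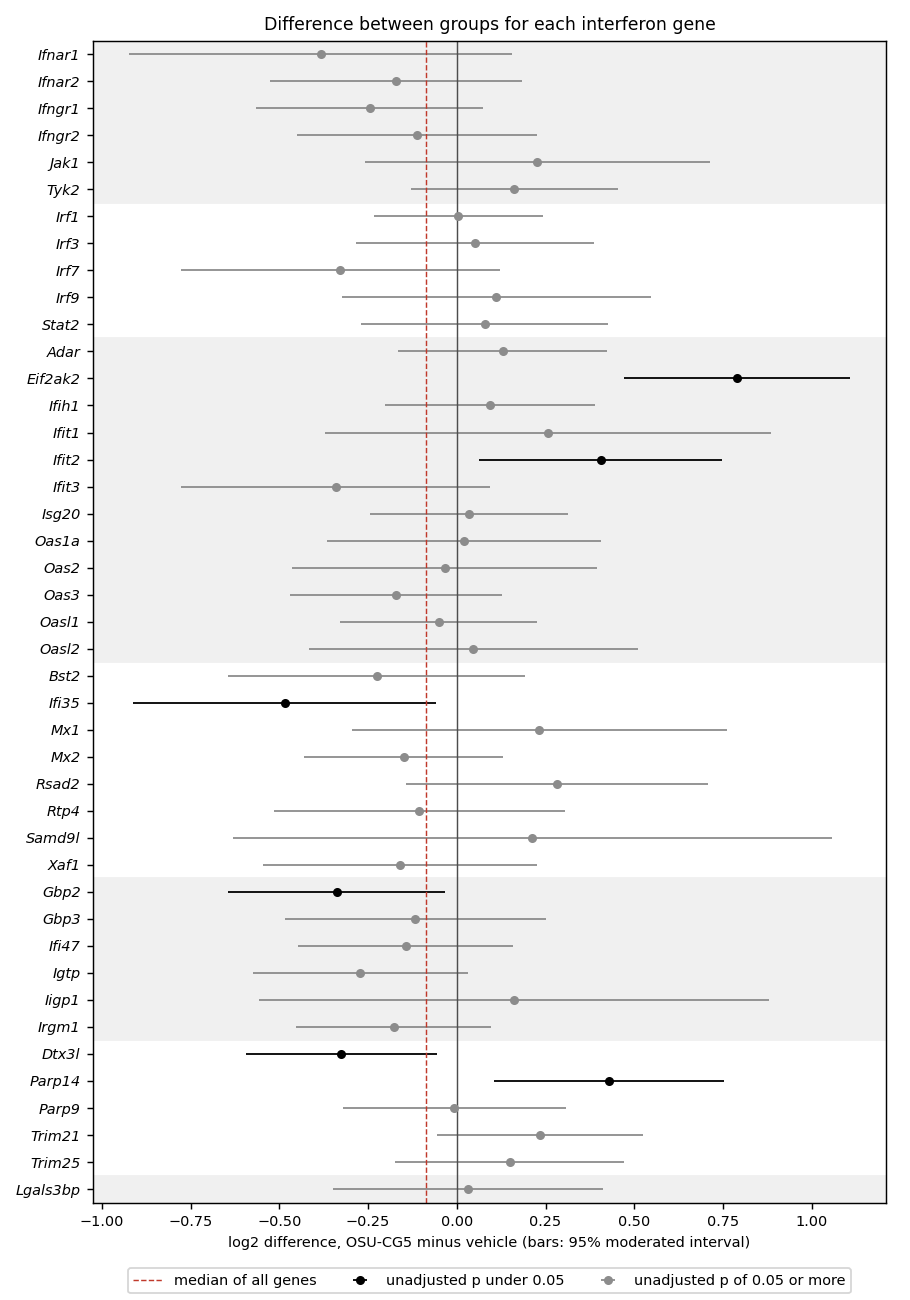
Log2 difference, OSU-CG5 minus vehicle, on the horizontal axis for each of the 43 measured interferon genes, ordered by role in shaded bands; points are limma estimates, bars their 95% moderated intervals, and the dashed line is the median of all genes, -0.09. Of the 43 intervals, 37 contain 0; the 6 that do not (black) are 3 above 0 and 3 below.

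The intervals bound what 3 mice per group could show. Of the 43 moderated 95% intervals, 27 lay within 1.5-fold either way and 41 within 2-fold either way. Single differences ran from -0.48 for Ifi35 to 0.79 for Eif2ak2, and 11 genes lay within 0.1 of 0. Eif2ak2 was the 1 gene with a difference of at least 1.5-fold. The median SD among the 3 arrays of a group was 0.17 for the interferon genes in OSU-CG5 mice and 0.20 in vehicle mice. For all genes it was 0.13 in OSU-CG5 mice and 0.18 in vehicle mice.

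**Figure D2:**
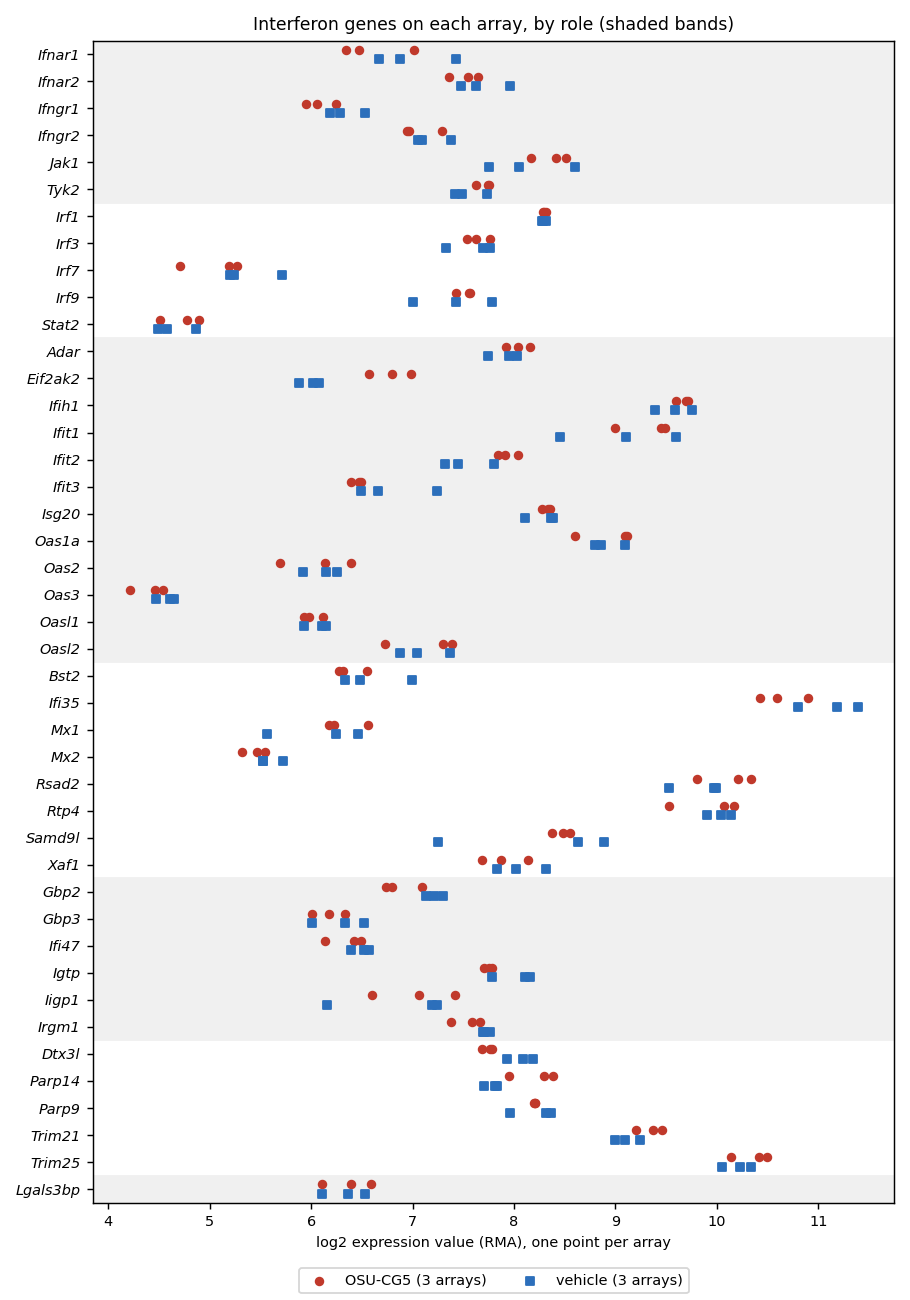
Log2 expression value (RMA) on each array for the 43 interferon genes, with OSU-CG5 mice as circles drawn above vehicle mice as squares and roles in shaded bands; each point is 1 array. The circles of Eif2ak2, 6.57 to 6.98, lie to the right of its squares, 5.88 to 6.08, and the groups overlap for all but 7 of the 43 genes.

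The receptors and kinases, which receive the signal, showed no difference past either threshold with all arrays. Of 6 genes, 4 lay below 0 and 2 above, with a median of -0.14. Ifnar1, one chain of the type I interferon receptor, read 7.01, 6.34 and 6.47 in OSU-CG5 replicates 1, 2 and 3, against 6.88, 7.42 and 6.67 in vehicle replicates 1, 2 and 3. The groups overlapped, with OSU-CG5 replicate 1 above vehicle replicates 1 and 3, and the difference was -0.38 ± 0.24 (SE). Its partner chain Ifnar2 read 7.65, 7.36 and 7.54 in OSU-CG5 mice, against 7.48, 7.96 and 7.63 in vehicle mice. Ifngr1, the ligand-binding chain of the interferon gamma receptor, read 6.25, 6.06 and 5.95 in OSU-CG5 mice, against 6.29, 6.53 and 6.18 in vehicle mice. For all 3 receptor chains vehicle replicate 2 was the highest of the 6 arrays. Their differences without it were -0.17 for Ifnar1, -0.04 for Ifnar2 and -0.15 for Ifngr1, against -0.38, -0.17 and -0.25 with it. Ifngr2, the second chain of that receptor, differed by -0.11, and by -0.01 without that array.

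Both kinases were on the other side of 0. Jak1, the kinase shared by both receptor types, read 8.51, 8.17 and 8.41 in OSU-CG5 mice, against 8.05, 8.60 and 7.76 in vehicle mice. Its difference was 0.23 ± 0.21 (SE) and moved with 1 array: without vehicle replicate 2 it was 0.46 ± 0.15 (SE), and the groups did not overlap. Limma then gave it an unadjusted p of 0.0137 and an adjusted p of 0.199. Tyk2, which docks on Ifnar1, read 7.74, 7.63 and 7.75 in OSU-CG5 mice, against 7.42, 7.74 and 7.48 in vehicle mice. The difference was 0.16, and 0.26 without vehicle replicate 2, where the groups again did not overlap. Without that array 32.2% of all genes did not overlap, against 22.3% with all arrays. Vehicle replicate 2 was the highest of all arrays for 5 of the 6 receptors and kinases, or 83.3%, and for 38.4% of all genes.

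Differences of the transcription factors lay close to 0 except for Irf7. The median difference over 5 factors was 0.05, and none passed an unadjusted p under 0.05. Irf1, an activator induced by interferon gamma, read 8.29, 8.31 and 8.29 in OSU-CG5 mice, against 8.31, 8.29 and 8.28 in vehicle mice. All 6 arrays lay within 0.035 of each other, and the moderated 95% interval of the difference ran from -0.23 to 0.24. Irf9, a DNA-binding partner of Stat2, read 7.57, 7.42 and 7.56 in OSU-CG5 mice, against 7.43, 7.78 and 7.01 in vehicle mice. The OSU-CG5 arrays sat inside the vehicle range, which spanned 0.78, and the difference was 0.30 without vehicle replicate 2. Stat2 itself read 4.90, 4.51 and 4.77 in OSU-CG5 mice, against 4.58, 4.87 and 4.49 in vehicle mice. The groups overlapped throughout, and the difference was 0.19 without vehicle replicate 2.

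The factors that switch on the interferons themselves also overlapped between groups at their brightest probe sets. Irf3, which activates the interferon beta gene after viral sensing, read 7.77, 7.62 and 7.54 in OSU-CG5 mice, against 7.33, 7.69 and 7.76 in vehicle mice. Irf7, which amplifies type I interferon output, read 4.70, 5.26 and 5.19 in OSU-CG5 mice, against 5.24, 5.71 and 5.20 in vehicle mice. OSU-CG5 replicate 1 was the low array for Irf7 and vehicle replicate 2 the high one. Its difference was -0.33 ± 0.20 (SE), and -0.17 without vehicle replicate 2. The differences of Irf1, Irf3, Irf9 and Stat2 were 0.00, 0.05, 0.11 and 0.08, and each changed sign under at least 1 alternative. That of Irf3 was 0.10 without vehicle replicate 2.

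The antiviral effectors that act on RNA and translation held the largest difference of the 43 genes. Of 12 genes, 8 lay above 0 and 4 below, with a median of 0.04, and 2 were higher at an unadjusted p under 0.05. Eif2ak2 encodes PKR, the kinase that binds double-stranded RNA and halts translation by phosphorylating eIF2 alpha, and its window carries an interferon-stimulated response element core just after the start. It read 6.57, 6.80 and 6.98 in OSU-CG5 mice, against 6.02, 5.88 and 6.08 in vehicle mice. Every OSU-CG5 array lay above every vehicle array, with a gap wider than the range of the vehicle group. The difference was 0.79 ± 0.14 (SE), or 1.73-fold, with a limma adjusted p of 0.134 over all probe sets. That adjusted p was 0.0299 with array quality weights, 0.0490 without vehicle replicate 3 and 0.0548 without vehicle replicate 2, and it ranged up to 0.457 over the other alternatives.

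Ifit2, which binds foreign RNA and restrains its translation, read 7.84, 7.91 and 8.04 in OSU-CG5 mice, against 7.80, 7.45 and 7.32 in vehicle mice. The groups did not overlap, though vehicle replicate 1 came close to OSU-CG5 replicate 1. The difference was 0.41 ± 0.15 (SE), with a limma adjusted p of 0.25. Its neighbour in the same family, Ifit3, went the other way: it read 6.48, 6.50 and 6.39 in OSU-CG5 mice, against 7.24, 6.66 and 6.49 in vehicle mice. The OSU-CG5 values were tight, vehicle replicate 1 was far above them, and the groups overlapped at vehicle replicate 3. The difference was -0.34 ± 0.19 (SE). Ifit1, the family member that recognises RNA ends, read 8.998, 9.449 and 9.483 in OSU-CG5 mice, against 9.600, 8.454 and 9.108 in vehicle mice, a wide vehicle range. Its difference was 0.26, and -0.04 without vehicle replicate 2, the low array.

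The oligoadenylate synthetases, which make the messenger that activates RNase L, showed no shared direction. Oas3 read 4.21, 4.54 and 4.46 in OSU-CG5 mice, against 4.61, 4.47 and 4.64 in vehicle mice. Its groups overlapped, and the difference was -0.17. The others differed by 0.02 for Oas1a, -0.04 for Oas2, -0.05 for Oasl1 and 0.05 for Oasl2. Without vehicle replicate 2 these were 0.11, -0.13, -0.12 and 0.18, again on both sides of 0. Ifih1, a sensor of long double-stranded RNA, read 9.70, 9.60 and 9.72 in OSU-CG5 mice, against 9.75, 9.59 and 9.39 in vehicle mice, and the groups overlapped. Its moderated 95% interval ran from -0.20 to 0.39. Adar, which edits adenosines in double-stranded RNA, differed by 0.13 at its brightest probe set, and Isg20, an exonuclease, by 0.04, or 0.07 without vehicle replicate 2.

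Within the OSU-CG5 group this set of genes shared 1 low array. OSU-CG5 replicate 1 was the lowest of its group for 10 of the 12 genes, or 83.3%, and for 41.8% of all genes. Mean levels over the 12 genes were 7.25, 7.47 and 7.55 on the OSU-CG5 arrays, against 7.41, 7.26 and 7.30 on the vehicle arrays. The means on OSU-CG5 replicates 2 and 3 were above those of all vehicle arrays, and the mean on OSU-CG5 replicate 1 was below them all.

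**Figure D3:**
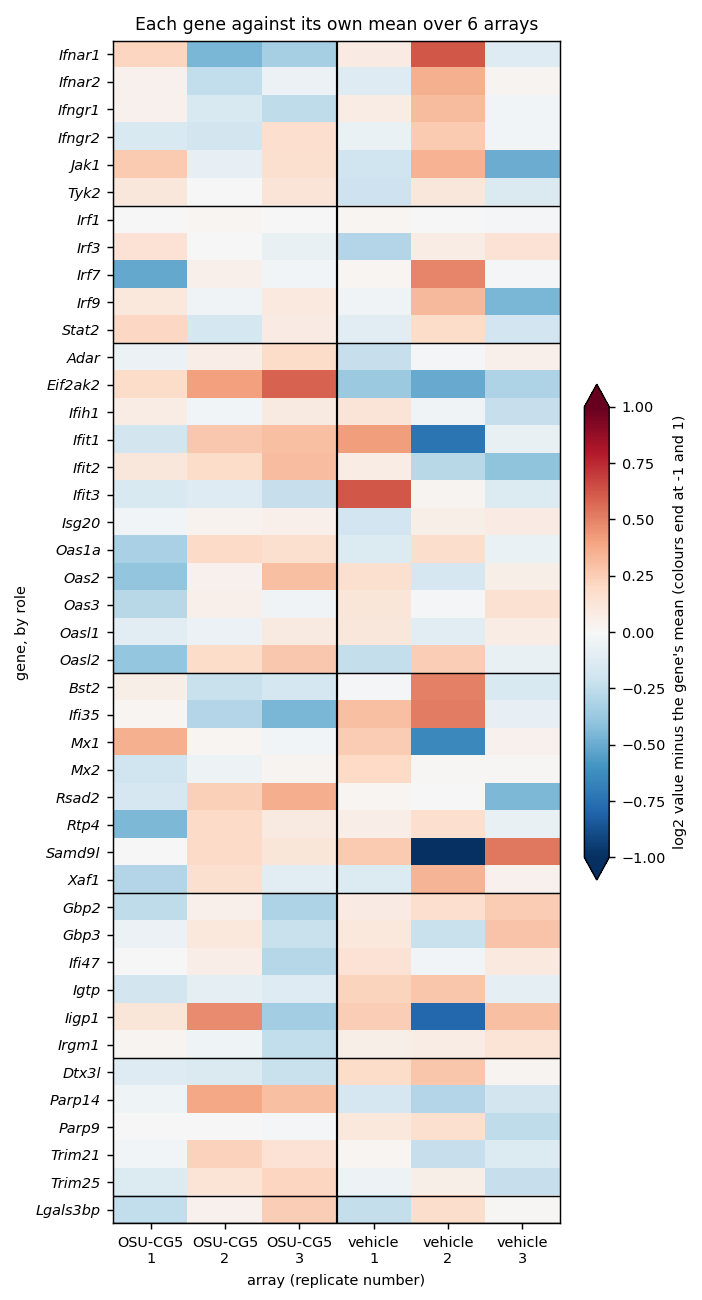
Colour gives each gene's log2 value minus its own mean over the 6 arrays, for the 43 interferon genes in rows grouped by role and the 6 arrays in columns, OSU-CG5 left of vehicle; colours end at -1 and 1. OSU-CG5 replicate 1 is low for the Oas genes, and vehicle replicate 2 is low for Samd9l, Iigp1, Ifit1 and Mx1 and high for the receptors.

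Among the other antiviral effectors, 3 of 8 measured genes lay above 0 and 5 below, with a median of -0.13. Ifi35, a leucine-zipper protein that partners Nmi, was the 1 gene of this set past an unadjusted p under 0.05. It read 10.90, 10.59 and 10.43 in OSU-CG5 mice, against 11.18, 11.39 and 10.79 in vehicle mice. OSU-CG5 replicate 1 lay above vehicle replicate 3, so the groups overlapped. The difference was -0.48 ± 0.19 (SE), with a limma adjusted p of 0.262, and -0.35 without vehicle replicate 2. Rsad2, the enzyme viperin, read 9.80, 10.21 and 10.33 in OSU-CG5 mice, against 10.00, 9.98 and 9.52 in vehicle mice. The groups overlapped, and the difference was 0.28 ± 0.19 (SE).

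Bst2, the tetherin that holds budding virus on the cell surface, read 6.547, 6.273 and 6.315 in OSU-CG5 mice, against 6.481, 6.995 and 6.337 in vehicle mice. Vehicle replicate 2 was the high array, and the difference was -0.23 with it and -0.03 without it. Mx2, a dynamin-like antiviral GTPase, read 5.31, 5.47 and 5.55 in OSU-CG5 mice, against 5.72, 5.53 and 5.53 in vehicle mice. The groups overlapped, and the difference was -0.15. Its relative Mx1 differed by 0.23, and by -0.03 without vehicle replicate 2. Samd9l, an antiviral restriction factor, read 8.37, 8.55 and 8.49 in OSU-CG5 mice, against 8.63, 7.25 and 8.89 in vehicle mice. The sign of its difference turned on vehicle replicate 2, at 0.21 with it and -0.29 without it. Xaf1, a promoter of cell death, differed by -0.16 and Rtp4 by -0.11, or by -0.03 and -0.05 without vehicle replicate 2.

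The interferon-inducible GTPases assemble on the vacuoles of intracellular microbes. Of those on the list, 5 of 6 measured genes lay lower in OSU-CG5 mice, with a median of -0.16. Above 0 lay 16.7% of these genes and 34.3% of all genes. Only 1 of the 6 passed an unadjusted p under 0.05. Gbp2, a guanylate-binding protein, read 6.79, 7.10 and 6.74 in OSU-CG5 mice, against 7.13, 7.21 and 7.30 in vehicle mice. All OSU-CG5 arrays lay below all vehicle arrays, by a margin that was small at OSU-CG5 replicate 2. The difference was -0.34 ± 0.13 (SE), with a limma adjusted p of 0.271. Igtp, a member of the immunity-related GTPases, read 7.70, 7.78 and 7.75 in OSU-CG5 mice, against 8.11, 8.16 and 7.79 in vehicle mice. Its groups did not overlap, but vehicle replicate 3 sat just above the OSU-CG5 values, and the difference was -0.27 ± 0.13 (SE). Irgm1, which regulates the other immunity-related GTPases, read 7.66, 7.59 and 7.38 in OSU-CG5 mice, against 7.69, 7.70 and 7.77 in vehicle mice. The groups did not overlap, and the difference was -0.18 ± 0.12 (SE). Ifi47 read 6.42, 6.49 and 6.14 in OSU-CG5 mice, against 6.57, 6.40 and 6.52 in vehicle mice, and overlapped.

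Gbp3 differed by -0.12 and Iigp1 by 0.16, or by -0.26 and -0.19 without vehicle replicate 2. Iigp1, which disrupts parasite vacuoles, read 7.06, 7.42 and 6.60 in OSU-CG5 mice, against 7.20, 6.16 and 7.24 in vehicle mice, so that vehicle replicate 2 set the sign of its difference. With all arrays, further measured genes of the same families, outside the list, did not share a direction. Gbp6, Gbp7 and Irgm2 differed by 0.22, -0.03 and 0.02, and their groups overlapped. Vehicle replicate 2 was the lowest of the 6 arrays for each of them, so each difference is lower without it. Without vehicle replicate 2 all 6 listed GTPases lay below 0, with a median of -0.20, while 39.6% of all genes lay above 0. Of the 6, 5 did not overlap then. Fewer arrays overlap less by construction: 32.2% of all genes did not overlap then, against 22.3% with all arrays. OSU-CG5 replicate 3 was the lowest of its group for 5 of the 6. Markers of macrophages and antigen-presenting cells moved the same way as these genes. Of 14 such markers, 13 lay below 0 and 9 were lower at an unadjusted p under 0.05, with a median difference of -0.46. Over all genes 11945 of 18193 lay below 0, and 8.43% were lower at that threshold. Their mean level was 6.69, 6.48 and 6.38 on the OSU-CG5 arrays, against 6.86, 7.18 and 6.82 on the vehicle arrays, which did not overlap. Without vehicle replicate 2 the median of these 14 was -0.35. Markers of T, NK and B lymphocytes averaged 4.88, 4.92 and 4.89 on the OSU-CG5 arrays, against 5.12, 5.05 and 5.13 on the vehicle arrays, over 11 genes with a median difference of -0.18. Of these 11, 10 lay below 0 and 4 were lower at an unadjusted p under 0.05. Other immune markers were mixed. Over 3 pan-leukocyte markers, 1 lay above 0 and 2 below. Their means were 6.76, 6.26 and 6.32 on the OSU-CG5 arrays, against 6.61, 6.35 and 6.87 on the vehicle arrays, which overlapped. Of 4 plasmacytoid dendritic markers, 3 lay below 0, and Tcf4 was higher on every OSU-CG5 array, by 0.34. Most markers outside the immune system lay lower. Median differences were -0.38 over 6 endothelial markers, 5 of them lower at an unadjusted p under 0.05, and -0.35 over 4 smooth muscle markers, 3 of them lower. They were -0.25 over 5 fibroblast markers and -0.20 over 3 basal epithelial markers, with 1 lower in each, and -0.01 over 6 luminal epithelial markers, with 0 lower. The part of these markers in the GTPase differences was not tested.

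The ubiquitin ligases and ADP-ribosyl transferases held 1 higher and 1 lower gene at an unadjusted p under 0.05 among 5 measured. Parp14, a mono-ADP-ribosyl transferase, read 7.95, 8.39 and 8.30 in OSU-CG5 mice, against 7.83, 7.70 and 7.81 in vehicle mice. Every OSU-CG5 array was above every vehicle array, and OSU-CG5 replicate 1 was nearest to them. The difference was 0.43 ± 0.14 (SE), or 1.35-fold, with a limma adjusted p of 0.22. Dtx3l, a ubiquitin ligase, read 7.78, 7.77 and 7.69 in OSU-CG5 mice, against 8.09, 8.18 and 7.93 in vehicle mice. The groups did not overlap in the opposite direction, and the difference was -0.33 ± 0.12 (SE), with a limma adjusted p of 0.242. Dtx3l works in a complex with Parp9, whose difference was -0.01, or 0.07 without vehicle replicate 2.

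Trim21, a cytosolic antibody receptor and ubiquitin ligase, read 9.20, 9.46 and 9.37 in OSU-CG5 mice, against 9.24, 8.99 and 9.09 in vehicle mice. The groups overlapped at OSU-CG5 replicate 1, and the difference was 0.24 ± 0.13 (SE). Trim25, the ligase that assists the RNA sensor RIG-I, read 10.14, 10.42 and 10.50 in OSU-CG5 mice, against 10.23, 10.34 and 10.05 in vehicle mice. OSU-CG5 replicate 1 lay inside the vehicle range, and the difference was 0.15. Lgals3bp, a secreted galectin-binding glycoprotein, read 6.10, 6.39 and 6.59 in OSU-CG5 mice, against 6.11, 6.53 and 6.36 in vehicle mice. The groups overlapped, and the difference was 0.03, or 0.13 without vehicle replicate 2.

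A second reading came from genes with more than 1 probe set. There were 28 further probe sets for 19 of the genes, of which 23 had the sign of the brightest one and 5 the other sign. Of the 28, 4 had higher values in OSU-CG5 mice and 0 lower values at an unadjusted p under 0.05. Among 16752 further probe sets of all genes 9.47% were higher and 6.48% lower. Their median was 0.03, against -0.06 for those of all genes. Eif2ak2 had 2 further probe sets, which differed by 0.32 and 0.84. The probe set with the larger difference read 6.18, 6.07 and 6.19 in OSU-CG5 mice, against 5.42, 4.87 and 5.62 in vehicle mice, and did not overlap. Parp14 differed by 0.24 and Dtx3l by -0.31 at their second probe sets. Gbp2 differed by -0.19, and Ifi35 by -0.21 and -0.20, smaller than at their brightest. The groups overlapped at these probe sets of Gbp2 and Ifi35, with limma unadjusted p-values of 0.185, 0.235 and 0.187.

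Adar and Irf3 did not read alike across their probe sets. A dimmer probe set of Adar read 6.97, 7.08 and 6.65 in OSU-CG5 mice, against 6.09, 5.53 and 5.98 in vehicle mice. Its groups did not overlap, and its difference of 1.03 ± 0.18 (SE), 2.04-fold, had a limma adjusted p of 0.134. The brightest probe set of Adar differed by 0.13 and the remaining one by 0.08. Irf3 differed by 0.05 at its brightest probe set, where the groups overlapped, and by -0.14, 0.37 and 0.32 at the others. At the 0.37 and 0.32 probe sets the groups did not overlap, with limma adjusted p-values of 0.25 and 0.256. Ifnar1 differed by -0.38 at its brightest and by 0.34 at its other probe set. Which transcripts these probe sets detect was not tested.

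**Figure D4:**
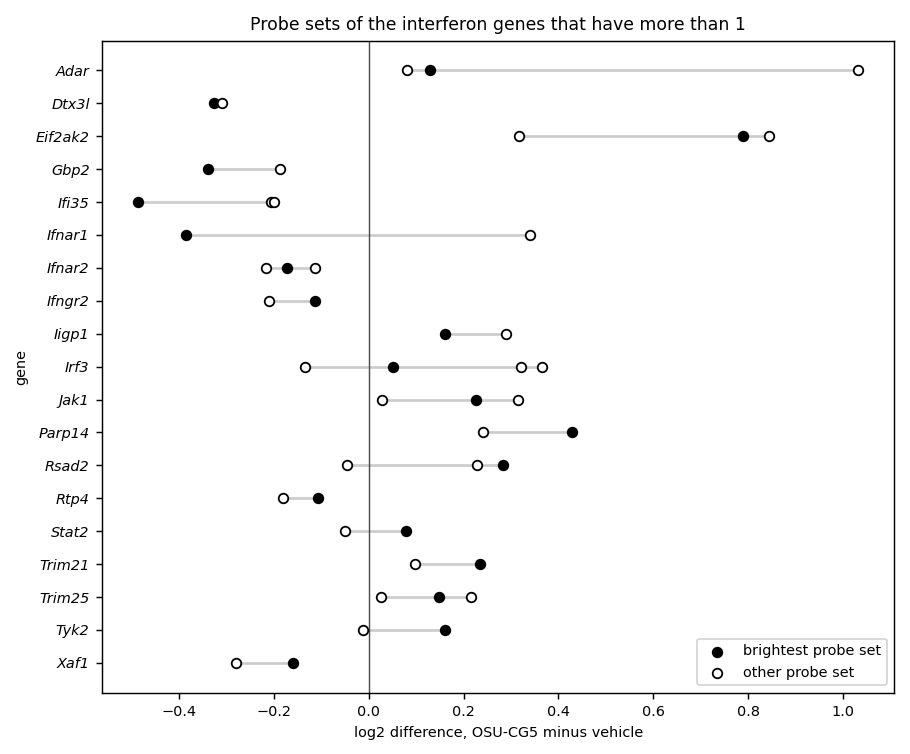
Log2 difference, OSU-CG5 minus vehicle, of every probe set of the 19 interferon genes that have more than 1; filled points are the brightest probe set and open points the others, joined by a grey line. Adar spans 0.08 to 1.03 and Ifnar1 -0.38 to 0.34, while both probe sets of Dtx3l lie near -0.3.

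A wider list of pathway genes that are not among the 46 was also divided between higher and lower. It took in the interferons, the sensors and relays of viral nucleic acid, the remaining JAK-STAT and IRF factors, negative regulators and other induced genes. Of 85 listed, 75 were measured, with 31 above 0, 44 below and a median of -0.03. None passed limma's adjusted threshold. OSU-CG5 mice had the higher value for 5 and the lower value for 6 at an unadjusted p under 0.05, 14.7% of the 75, against 13.8% of all genes.

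The pathway genes with the smallest p-values also lay on both sides. Tbk1, the kinase that activates Irf3, read 10.53, 10.64 and 10.51 in OSU-CG5 mice, against 10.14, 9.87 and 10.31 in vehicle mice. Cgas, the sensor of cytosolic DNA, read 9.27, 9.48 and 9.33 in OSU-CG5 mice, against 8.87, 8.64 and 9.16 in vehicle mice. Ddx60, a helicase that assists RNA sensing, read 7.12, 7.09 and 7.03 in OSU-CG5 mice, against 6.86, 5.86 and 6.38 in vehicle mice. All 3 were higher on every OSU-CG5 array, by 0.45 ± 0.14, 0.47 ± 0.15 and 0.71 ± 0.23 (SE), with limma adjusted p-values of 0.204, 0.218 and 0.211. Without vehicle replicate 2, the low array of all 3, the difference of Ddx60 was 0.46. Irf2, which antagonises Irf1 at shared sites, read 4.52, 4.49 and 4.68 in OSU-CG5 mice, against 4.94, 5.38 and 4.91 in vehicle mice. Slfn2, a schlafen that maintains T-cell quiescence, read 5.94, 6.13 and 5.88 in OSU-CG5 mice, against 6.58, 6.24 and 6.45 in vehicle mice. Ifnb1, interferon beta itself, read 4.16, 4.13 and 4.27 in OSU-CG5 mice, against 4.58, 4.70 and 4.40 in vehicle mice. These 3 were lower on every OSU-CG5 array, by differences of -0.52 ± 0.15, -0.44 ± 0.13 and -0.37 ± 0.12 (SE). Their limma adjusted p-values were 0.195, 0.203 and 0.223. Irf2 and Ifnb1 were dim, with means over the 6 arrays of 4.82 and 4.37, below every array median.

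Usp18, which removes Isg15 from proteins and damps receptor signalling, read 6.20, 6.54 and 6.59 in OSU-CG5 mice, against 6.71, 6.84 and 6.11 in vehicle mice. Cxcl10, an interferon-induced chemokine, read 6.80, 6.84 and 7.26 in OSU-CG5 mice, against 6.69, 7.11 and 6.71 in vehicle mice. Both overlapped between groups, with differences of -0.11 and 0.13, or 0.04 and 0.26 without vehicle replicate 2. The 4 measured genes that encode interferons (Ifnb1, Ifng, Ifna4 and Ifna2) all lay below 0, between -0.37 and -0.10. Their means over the 6 arrays ran from 2.99 to 4.37, below every array median, and how far they lie above background is unknown. The 10 genes of antigen processing and class I presentation (B2m, H2-K1, H2-D1, Tap1, Tap2, Tapbp, Psmb8, Psmb9, Psmb10 and Psme1) differed by between -0.25 for Psmb10 and 0.15 for Tap1.

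**Figure D5:**
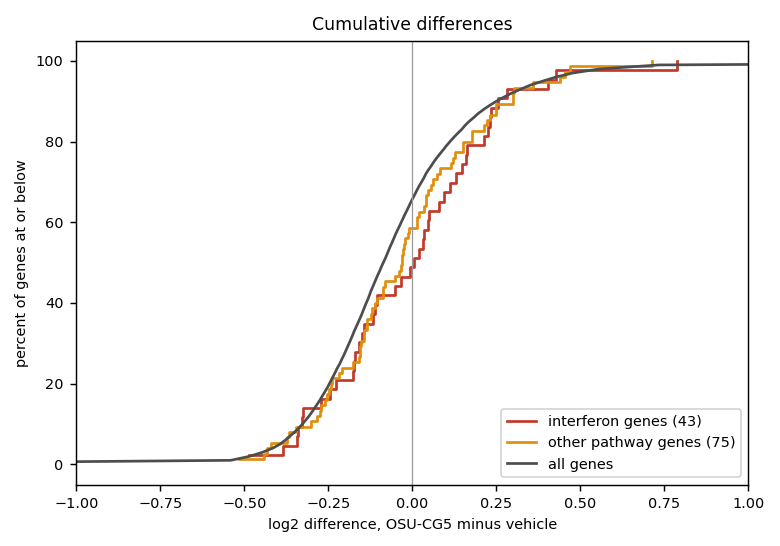
Percent of genes at or below each log2 difference, OSU-CG5 minus vehicle, for the 43 interferon genes, the 75 other pathway genes and all genes. The curve of the interferon genes crosses 0 near the middle, with a median of 0.00, and the curve of all genes lies to its left there, with a median of -0.09. The gene sets are not matched for brightness.

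Differences fell on both sides of 0 for genes with and without the response elements. The 14 measured genes with the interferon-stimulated response element letters had a median difference of -0.05, with 7 above 0 and 7 below. The 7 with the gamma-activated site letters alone had a median of 0.00, and the 15 with neither had a median of 0.03. Among the windows printed above, Eif2ak2 and Trim21 have positive differences, and Gbp2, Igtp and Ifit3 have negative ones. The 2 windows with the gamma-activated site letters only belong to Ifit2, at 0.41, and Ifi35, at -0.48.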

How the data were processed

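Transcripts of dorsal plus lateral prostate were measured on 6 Affymetrix arrays, 1 for each of 3 OSU-CG5 and 3 vehicle TRAMP mice. What was deposited for each probe set is a log2 value, made with RMA per the submitters' processing notes, whose software is not given in the sources. RMA forces the arrays to share a distribution, so a broad shift in 1 direction is partly removed. Per the labels' protocols, RNA was extracted with Trizol and 2 ug was labelled. Groups follow the tissue source label, since the description of some treated samples numbers the compound differently.

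Of 45101 probe sets, 64 controls were left out. Platform annotation gave 34945 probe sets 1 symbol, 932 several and 9160 none, and 34741 gene numbers were found in the RefSeq table, with 0 symbols changed. Each gene was read from its single-symbol probe set of highest mean. The test was limma 3.58.1 in R 4.3.3 (lmFit and eBayes, no filter, Benjamini-Hochberg over 45037 probe sets), checked on simulated data. SE and 95% intervals are moderated, and SD is over 3 arrays. The labels do not say that the mice were handled in batches or pairs, and the p-values measure the spread between these mice.

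Genes given by array were, in each role, the 4 of smallest unadjusted p and the one of highest mean, with Irf3, Irf7, Irf9, Stat2 and Ifnar1, and from the pathway list the 6 of smallest p, Usp18 and Cxcl10. The dimmer probe set of Adar, Ifit1, Samd9l and Iigp1 were added after their values were seen. The genes and lists were chosen with earlier results of these data known. Alternatives changed the filter on low signal, the scaling, the variance model, array weights and the probe sets used, or left out each array in turn.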

Additional observations from a re-analysis of the deposited data

How the results depend on the processing

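Of 570 differences of the 36 genes that the rule for named genes chose, under 16 alternatives, 566 stayed on their side of the adjusted threshold and within 1 SD, 2 of Irf1 moved by more than its small SD, and 2 of Eif2ak2 passed the threshold. Signs changed 15 times, in 7 genes (Irf1, Irf3, Irf9, Stat2, Lgals3bp, Usp18 and Cxcl10), each time at an unadjusted p of 0.05 or more. Of genes outside that rule, Ifit1, Samd9l, Iigp1, Mx1 and Parp9 also changed sign without vehicle replicate 2. With a minimum mean of log2 6, 55 pathway genes remained, 3 higher and 3 lower at an unadjusted p under 0.05. Repeated quantile normalization gave a median of -0.07 (-0.07234) for the interferon genes, 1 higher and 5 lower, and for the pathway genes -0.08 (-0.07646) and 10 lower. The median of all genes was -0.09 in that setting, and 15% of all genes passed an unadjusted p under 0.05. Cyclic loess left 4 interferon genes whose groups did not overlap. With array quality weights limma called 1 interferon gene, Eif2ak2, beside 822 probe sets in all, and the pathway median was 0.01 (0.005794). The median of all genes was -0.07 with these weights. Averaging a gene's probe sets gave 1 lower interferon gene, a pathway median of -0.07 (-0.07232) and 11 lower pathway genes. With such averages the median of all genes was -0.08, and 15.7% of all genes passed an unadjusted p under 0.05. The cause of these shifts was not tested. Leaving out each array in turn, the median of the interferon genes ran from -0.05279 to 0.009469, those at an unadjusted p under 0.05 from 1 (without OSU-CG5 replicate 3, when 7.43% of all genes passed; 2 without OSU-CG5 replicate 2) to 7, the higher ones from 1 to 4, the lower ones from 0 to 4, and those without overlap from 9 to 15, which fewer arrays raise by construction. The adjusted calls were 0 or 1, the 1 being Eif2ak2 without vehicle replicate 3, when 885 probe sets passed in all (400 without vehicle replicate 2). For pathway genes the median ran from -0.05675 to -9.25e-05, the higher ones from 2 to 7 and the lower ones from 3 to 8, with 0 adjusted calls. With looser letters 51.3% of the 39 genes with a window held the first motif, against 8.7% of the 14452 measured genes with a window. With 4 bases between its ends 20.5% held the second, against 6.94%. Detection calls were not used here, so how far dim genes such as Stat2, Oas3, Irf2, Socs1 and Ifnb1 lie above background is unknown. No paired analysis was possible because the replicate numbers only name mice.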

Other observations

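Sensors and relays of viral nucleic acid differed in both directions. Of 13 measured outside the 46 genes, 5 lay above 0 and 8 below, and the groups did not overlap for 6 of them, while 34.3% of all genes lay above 0 and 22.3% did not overlap. Tlr3, the endosomal receptor for double-stranded RNA, differed by 0.25 and did not overlap, beside Tbk1 and Cgas on the same side. Tlr7 and Tlr9, endosomal receptors prominent in plasmacytoid dendritic and B cells, differed by -0.28 and -0.27, and Zbp1, a sensor of left-handed nucleic acid, by -0.25, none of them overlapping. The adaptors Sting1 and Ticam1 differed by -0.22 and -0.18, and the RNA helicases Ddx58 and Dhx58 by 0.04 and -0.01. Limma's unadjusted p for the 3 Toll-like receptors and Zbp1 lay between 0.0629 and 0.0699. Among negative regulators, 5 of 6 lay below 0, and Socs1, an inhibitor of the Janus kinases, differed by -0.42 with no overlap and a limma adjusted p over all probe sets of 0.24. Nlrc5, an activator of class I genes, differed by 0.36, while the class I genes named above differed by -0.25 (Psmb10) to 0.15 (Tap1).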
